A study of Homo sapiens with 66 samples.

Results

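Homologous recombination and the Fanconi anaemia pathway were followed through 33 genes, taken by symbol from the 57992 gene identifiers analysed, in 11 human acute myeloid leukaemia (AML) cell lines before and after etoposide. The lines were F36P, HL60, KASUMI1, MOLM13, MONOMAC6, MV411, NB4, NOMO1, OCIAML2, OCIAML3 and THP1, all established lines propagated in culture, so that each line is a single genotype and its replicates are cultures of that line. Each was sampled as 3 untreated cultures and 3 cultures exposed for 24 h to etoposide, each culture pooled from 3 wells, which gave 66 mRNA libraries. Serum levels and supplements differed between the lines, and F36P was kept with granulocyte-macrophage colony stimulating factor. These growth conditions cannot be told apart from the line. The etoposide concentration was the IC50 that the study had derived for that line from a fitted dose curve. The cultures of different lines therefore received different concentrations, the lowest in OCIAML2 and the highest in F36P. The IC50 of F36P lay above the highest concentration of its dose curve. The study discarded the etoposide libraries of OCIAML2 for their read quality. They are described here for that line alone and enter no value taken over 10 cell lines.

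Etoposide traps topoisomerase II on cut DNA and leaves broken chromosomes. Homologous recombination mends such breaks from an intact sister copy: MRE11, RAD50 and NBN with RBBP8 begin to trim the ends, EXO1 or DNA2 with the helicases BLM and WRN extend the trimming, BRCA1 with BARD1 brings in PALB2 and BRCA2, and the pairing of the trimmed end with the intact copy is helped by RAD51B, RAD51C, RAD51D, XRCC2, XRCC3, RAD51AP1, RAD52, RAD54L and RAD54B. The Fanconi anaemia core complex (FANCA, FANCC, FANCE, FANCF, FANCG, FANCL and FANCM) works with the ubiquitin-conjugating enzyme UBE2T to mark FANCD2 and FANCI where the strands are crosslinked, and SLX4 then gathers nucleases. The helicase BRIP1 belongs to both pathways. Many of these genes are known to be transcribed mainly in dividing cells, through E2F factors.

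The libraries held between 17997404 and 24101670 reads on genes (median 20241014), and all 33 members passed the filter on low counts in each cell line. Levels are given as CPM, the reads of a gene relative to the TMM-scaled size of its library, and were scaled anew within each comparison, so the same library can differ slightly between comparisons. The pan-leukocyte marker PTPRC stood between 32.5 and 539.6 CPM and the myeloid markers CD33 and SPI1 between 66.5 and 147 CPM and between 107 and 203 CPM over the 11 untreated lines. F36P carried 8 of 8 erythroid markers at 1 CPM or more (summed level 7761 CPM, against 239 to 1059 CPM in the other lines), with CEBPA at 0.552 CPM and MPO at 0.977 CPM. The other lines held 2 or 3 of these 8 at that level, and TFRC alone stood between 225 and 1037 CPM in them. F36P held 6 of 8 haematopoietic and myeloid markers at 1 CPM or more and the other lines 8. MPO ran from 2.99 CPM in OCIAML3 to 27170 CPM in KASUMI1 among those lines. The 6 T and B cell markers summed to between 0.565 and 166 CPM, the highest in NOMO1 through CD3D at 156 CPM, and the 6 epithelial and stromal markers to between 0.396 and 81.9 CPM, the highest in KASUMI1 through EPCAM. The part of these markers in the results was not tested. RAD54B shares 66.0% of its exon bases with another gene on the same strand (FSBP), so its counts, the lowest of the members, are uncertain. RAD51D shares 8.9%, RAD52 5.2% and BRCA1 0.8% in the same way, and the others none. The largest shares with genes on the opposite strand were 76.7% in XRCC3 (KLC1), 19.9% in RAD54L, 19.6% in FANCA and 9.6% in FANCF. Such overlaps would matter if reads were counted without regard to strand. The first untreated F36P library stood apart: its median log2 distance of the members from the untreated F36P mean was -0.41, against 0.02 and 0.24 in the other replicates.

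The start regions of the members are shown first, and whether their letters go with the members' changes was not tested. RefSeq (GRCh38.p14) start windows, from 250 bases before to 50 bases after the start, were held for 28 of the 33 members; RAD54B, NBN, DNA2, WRN and FANCI had none. These 28 members had 37 windows, since a gene can have several. The letters of an E2F site (TTTGGCGC, TTTCCCGC or TTTCGCGC, on either strand) lay in 4 of the 37 (10.8%), 1 each of EXO1, FANCD2, XRCC2 and FANCC, while 2.74% of all 35116 windows hold them. They are printed 5′ to 3′ on the strand of the gene, from 180 bases before to 30 bases after the start, with the E2F letters in capitals. They begin 4 bases after the start of EXO1 (chr1:241848024-241848233, plus strand), 2 bases before that of FANCD2 (chr3:10026257-10026466, plus strand), 21 bases after that of XRCC2 (chr7:152676112-152676321, minus strand), and 172 and 46 bases before that of FANCC (chr9:95317680-95317889, minus strand).
EXO1: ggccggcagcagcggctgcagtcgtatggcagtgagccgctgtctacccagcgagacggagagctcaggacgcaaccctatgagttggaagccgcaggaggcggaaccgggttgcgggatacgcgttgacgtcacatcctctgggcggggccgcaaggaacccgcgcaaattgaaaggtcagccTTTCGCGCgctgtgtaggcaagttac
FANCD2: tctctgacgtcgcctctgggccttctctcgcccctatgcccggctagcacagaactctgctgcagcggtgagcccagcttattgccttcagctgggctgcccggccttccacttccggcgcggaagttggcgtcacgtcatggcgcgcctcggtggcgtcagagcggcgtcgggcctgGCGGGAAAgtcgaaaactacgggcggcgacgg
XRCC2: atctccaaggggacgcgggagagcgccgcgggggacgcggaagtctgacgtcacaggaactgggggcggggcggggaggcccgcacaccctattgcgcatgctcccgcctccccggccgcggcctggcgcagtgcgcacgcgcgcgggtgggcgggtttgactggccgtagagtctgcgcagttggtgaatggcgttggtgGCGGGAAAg
FANCC: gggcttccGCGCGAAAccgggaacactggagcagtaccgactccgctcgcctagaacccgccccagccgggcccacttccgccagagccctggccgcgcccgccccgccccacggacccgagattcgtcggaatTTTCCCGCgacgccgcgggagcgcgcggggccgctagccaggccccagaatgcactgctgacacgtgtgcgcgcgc
The CCAAT box (CCAAT, on either strand) was found in 13 of the 37 windows (35.1%, against 34.6% of all windows), that of UBE2T among them, and its letters are in capitals in the start region of that gene (chr1:202341907-202342116, minus strand), beginning 124 and 73 bases before the start.
UBE2T: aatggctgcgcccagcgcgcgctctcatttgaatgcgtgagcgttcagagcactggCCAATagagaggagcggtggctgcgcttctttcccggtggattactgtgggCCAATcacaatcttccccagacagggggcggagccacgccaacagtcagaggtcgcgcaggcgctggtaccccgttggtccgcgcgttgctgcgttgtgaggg
The ETS letters CCGGAAG were found in 9 windows (24.3%, against 10.3% of all windows), those of BRCA2 and FANCD2 among them, and the CHR letters TTTGAA in 3 (8.11%, against 15.2%), of BRIP1, FANCC and UBE2T. These are matches of letters, and none of them was tested as a bound site.

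Basal levels were compared first, each line against the mean of the other 10. The members were expressed in all 11 untreated lines. The median member spanned 1.47 on the log2 scale between its lowest and its highest line, while the median of 11712 genes averaging 1 CPM or more and read in every line was 1.85. Those genes were not matched to the members by level. Of 363 pairs of a member and a line, 12 were higher and 18 lower by over 2-fold at an edgeR adjusted p under 0.05. Over all genes tested and the same 11 contrasts, 17.5% of gene and line pairs were higher and 8.18% lower.

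FANCD2, the protein that the core complex ubiquitinates, had the narrowest range, from 82.1 ± 1.6 CPM in MONOMAC6 to 113.9 ± 11.3 CPM in KASUMI1 (SD, n = 3). FANCI, its partner, spanned 122 to 244 CPM and UBE2T 47.7 to 99.9 CPM. None of these 3 members was called in a line. Per kilobase of the canonical transcript, UBE2T had the highest median level of the 33 over the lines (67.7 CPM per kb), FANCI followed with 40.6 CPM per kb, and RAD54B was lowest with 0.949 CPM per kb.

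BRCA2, which acts on the single-stranded DNA that trimming leaves, had the widest range and was called in 7 of 11 lines. Its untreated level was 8.08, 10.95 and 19.1 CPM in the 3 libraries of F36P and 141, 126 and 118 CPM in those of HL60. The F36P libraries lay below those of every other line apart from KASUMI1, whose values of 21.8, 23.1 and 16.1 CPM overlapped them. Against the mean of the other lines, BRCA2 was lower in F36P (log2 difference -2.29, edgeR adjusted p = 4.21e-14), KASUMI1 (-1.55) and MONOMAC6 (-1.14) and higher in HL60 (1.37), NOMO1 (1.30), MV411 (1.18) and NB4 (1.04). The NB4 call needed its first library: without replicate 1 of each line the difference was 0.85.

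FANCF, an adaptor of the core complex, came next. Its 3 libraries held 4.29, 4.62 and 5.26 CPM in MV411, 5.38, 5.00 and 4.65 CPM in NB4, and 5.71, 6.65 and 5.19 CPM in OCIAML3. NOMO1 held 28.1, 32.5 and 28.8 CPM and OCIAML2 31.1, 31.7 and 30.3 CPM. The other 6 lines had means from 11.4 CPM in MONOMAC6 to 23.5 CPM in F36P, between these groups. The 3 low lines overlapped one another, as did the 2 high ones, and no library of a low line reached those of any other line. The log2 differences of the 5 lines from the others were -1.599, -1.503, -1.26, 1.32 and 1.39 in that order, with edgeR adjusted p between 2.52e-19 and 2.52e-14.

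Among the strand pairing genes, RAD52 was lowest in THP1, with 5.09, 5.10 and 5.63 CPM, and highest in F36P, with 26.8, 26.8 and 27.6 CPM. The THP1 libraries lay below those of every other line, and the log2 difference was -1.77 (edgeR adjusted p = 3.97e-20). RAD54B, a translocase related to RAD54L, ran from 1.65, 1.04 and 0.920 CPM in NB4 to 6.98, 5.86 and 8.60 CPM in OCIAML3, with log2 differences of -1.56 and 1.25. RBBP8, the CtIP protein that starts end trimming with MRE11, ran from 26.6, 20.4 and 37.5 CPM in OCIAML3 to 162, 149 and 146 CPM in HL60, with log2 differences of -1.09 and 1.58; without replicate 2 of each line the OCIAML3 difference was -0.92 and no longer passed 2-fold.

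The members were also counted line by line. In MV411, 30 of 33 members were above the mean of the other lines (median log2 difference 0.36, against -0.01 over all genes tested), and MRE11 (169 CPM), BRCA2 (114 CPM) and FANCC (39.2 CPM) passed 2-fold upwards (9.09% of members, against 11.9% of all genes). In MONOMAC6, 28 of 33 were below (median -0.25, against 0.06 over all genes), with FANCA at 35.7 CPM (log2 difference -1.54) and BRCA2 past 2-fold (6.06%, against 7.12% of all genes lower). KASUMI1 had a median of -0.23 and 5 members past 2-fold, all lower (15.2%, against 10.9% of all genes): BRCA2, BARD1, NBN, EXO1 and FANCE. F36P had a median of -0.18 and 4, also all lower (12.1%, against 14.1% of all genes): BRCA2, RAD50, FANCC and RAD51D. NBN was highest in MOLM13 (231 CPM, log2 difference 1.12), and XRCC2 ran from 25.8 CPM in NOMO1 to 101 CPM in OCIAML3, both called.

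**Figure D1:**
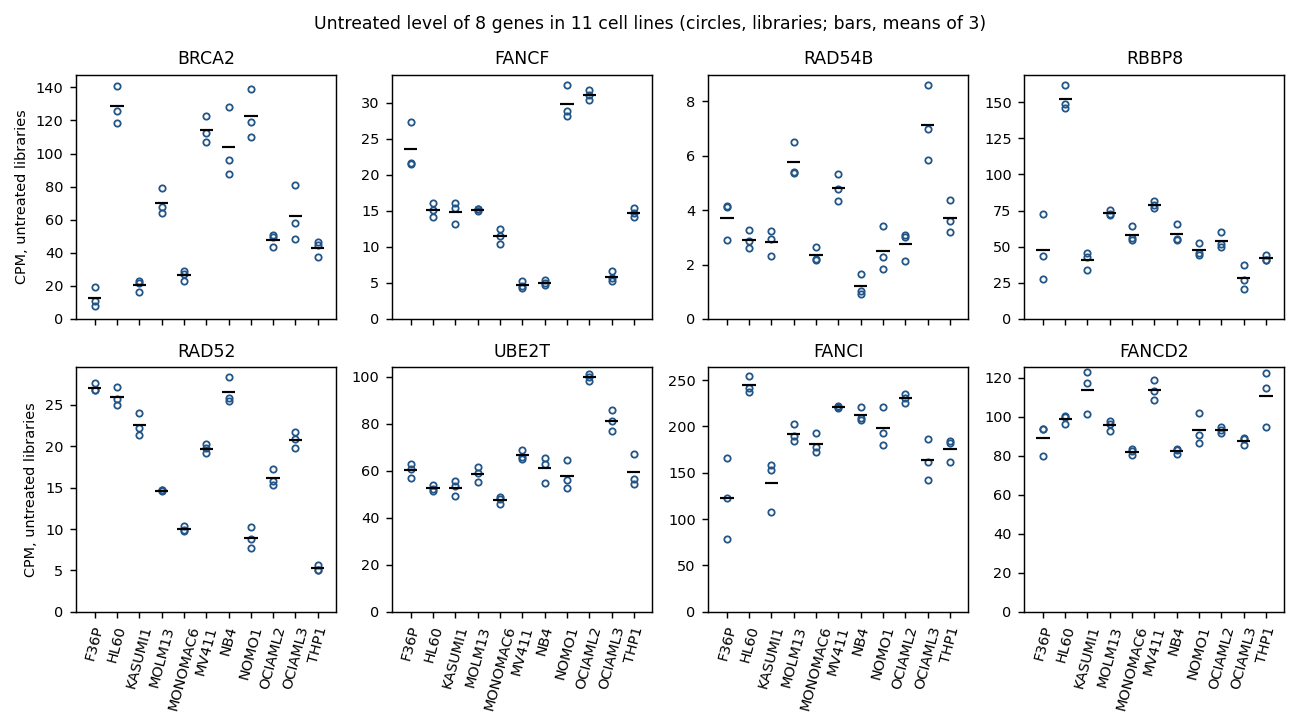
Untreated level in CPM (vertical axes, linear from 0) of the 5 members with the widest and the 3 with the narrowest range over 11 AML cell lines (horizontal axes); circles are the 3 libraries of a line and bars their mean. BRCA2, the widest, runs from 12.7 CPM in F36P to 128 CPM in HL60, and FANCD2, the narrowest, from 82.1 to 114 CPM.

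Etoposide cultures were compared with untreated ones within each line. The members did not move one way: most fell in MOLM13, more fell than rose in OCIAML3, more rose than fell in KASUMI1, MONOMAC6, NOMO1 and HL60, and the medians lay near 0 in F36P, MV411, NB4 and THP1. Over 10 lines, 76 of 330 pairs of a member and a line fell and 102 rose at an edgeR adjusted p under 0.05, and 9 fell and 13 rose by over 2-fold. These were 23.0% and 30.9% of the pairs, near the 24.4% and 27.7% of 143149 pairs of any gene and a line, and 2.73% and 3.94% past 2-fold, against 3.96% and 11.1%. With the library total in place of TMM as the scale, 65 fell and 142 rose, for which the share of all genes was not counted. That scale shifted the median of all genes by 0.249 in F36P, 0.206 in NB4, 0.175 in KASUMI1, 0.128 in MV411, 0.117 in MONOMAC6 and 0.103 in HL60 on the log2 scale, and the distance of the members' median from the median of all genes moved by at most 0.01 in any line, since both shifted together. In bulk RNA fewer cells holding a transcript and less of it per cell cannot be told apart.

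In MOLM13 most members fell. Of the 33, 28 fell and 0 rose at an adjusted p under 0.05 (edgeR quasi-likelihood test), where 28.1% of 13710 genes fell and 28.1% rose. With the 2-fold minimum, 8 fell and 0 rose, where 3.37% of genes fell and 8.59% rose. The median log2 fold change of the members was -0.77, against 0.00 over all genes tested. By library, the median distance of the members from the untreated mean was 0.01, -0.05 and 0.02 in the untreated cultures and -0.72, -0.79 and -0.77 after etoposide, so the groups did not overlap. The 8 were RBBP8, FANCM, RAD54B, XRCC2, FANCI, BLM, EXO1 and BRIP1, with log2 fold changes from -1.22 to -1.04. With a correction for the GC content of the transcripts, chosen after seeing the data, 28 members fell but 2 passed 2-fold; each replicate left out in turn gave 7 to 12.

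The changes of single members in MOLM13 ran from -1.22 to 0.04. EXO1, the exonuclease of long-range end trimming, stood at 62.8, 60.8 and 56.3 CPM in the untreated cultures and at 29.2, 28.0 and 28.4 CPM after etoposide (log2 fold change -1.07 ± 0.07 SE, edgeR adjusted p = 2.95e-06). FANCI stood at 182, 177 and 195 CPM and then at 95.2, 76.5 and 87.4 CPM (-1.09 ± 0.09). XRCC2, which forms a complex with RAD51B, RAD51C and RAD51D, stood at 41.6, 39.2 and 38.4 CPM and then at 18.8, 18.9 and 16.4 CPM (-1.14 ± 0.09). In each of these genes the 3 etoposide libraries lay below the 3 untreated ones. BRCA1 went from 122, 114 and 119 CPM to 77.2, 47.3 and 54.0 CPM (-0.996 ± 0.15) and BRCA2 from 65.0, 61.5 and 76.0 CPM to 44.4, 27.3 and 35.3 CPM (-0.92 ± 0.15), just short of 2-fold and with no overlap. The 5 members that did not pass the test in MOLM13 were SLX4, RAD52, RAD51B, FANCF and RAD50, the last with 76.9, 72.7 and 79.8 CPM before and 76.5, 41.2 and 59.3 CPM after (edgeR adjusted p = 0.0882).

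The difference between MOLM13 and the other lines was tested itself, as its etoposide effect less the mean effect of the other 9. At an edgeR adjusted p under 0.05, 25 members had a lower response in MOLM13, where 12.6% of 19974 genes did, and 14 by over 2-fold, where 3.90% did. EXO1 differed most, by -1.80 ± 0.15 (SE; log2 fold change -1.07 in MOLM13 and 0.76 on average in the others, range -0.10 to 1.40). RBBP8 (-1.68), FANCI (-1.56), BRCA1 (-1.50), BRIP1 (-1.49), RAD51AP1 (-1.45), BRCA2 (-1.39), RAD54B (-1.33), BLM (-1.18) and UBE2T (-1.12) followed, and DNA2, XRCC2, FANCM and FANCG lay between -1.08 and -1.02. The count of 14 ranged from 10 to 19 over the alternatives: UBE2T (-0.97), XRCC2 (-0.93), FANCM (-0.90) and FANCG (-0.96) fell short of 2-fold without replicate 3 of each group, FANCM (-0.97) also without replicate 2 and FANCG (-0.98) without replicate 1. The 14 therefore came from every role: resection enzymes, BRCA proteins, strand pairing genes, core complex and the FANCD2 partner. Under a 2-fold minimum KASUMI1 gave 2 members with a higher response, RAD51AP1 (1.37 ± 0.18) and BRCA2 (1.17 ± 0.23), where 5.50% of genes did, and NB4 gave RAD51B (1.04 ± 0.15), where 3.00% did. The BRCA2 difference was 0.77 without replicate 3 of each group, and that of RAD51B was 0.97 without replicate 1 and 0.96 without replicate 2. The lines received different etoposide concentrations, which cannot be told apart from the line.

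**Figure D2:**
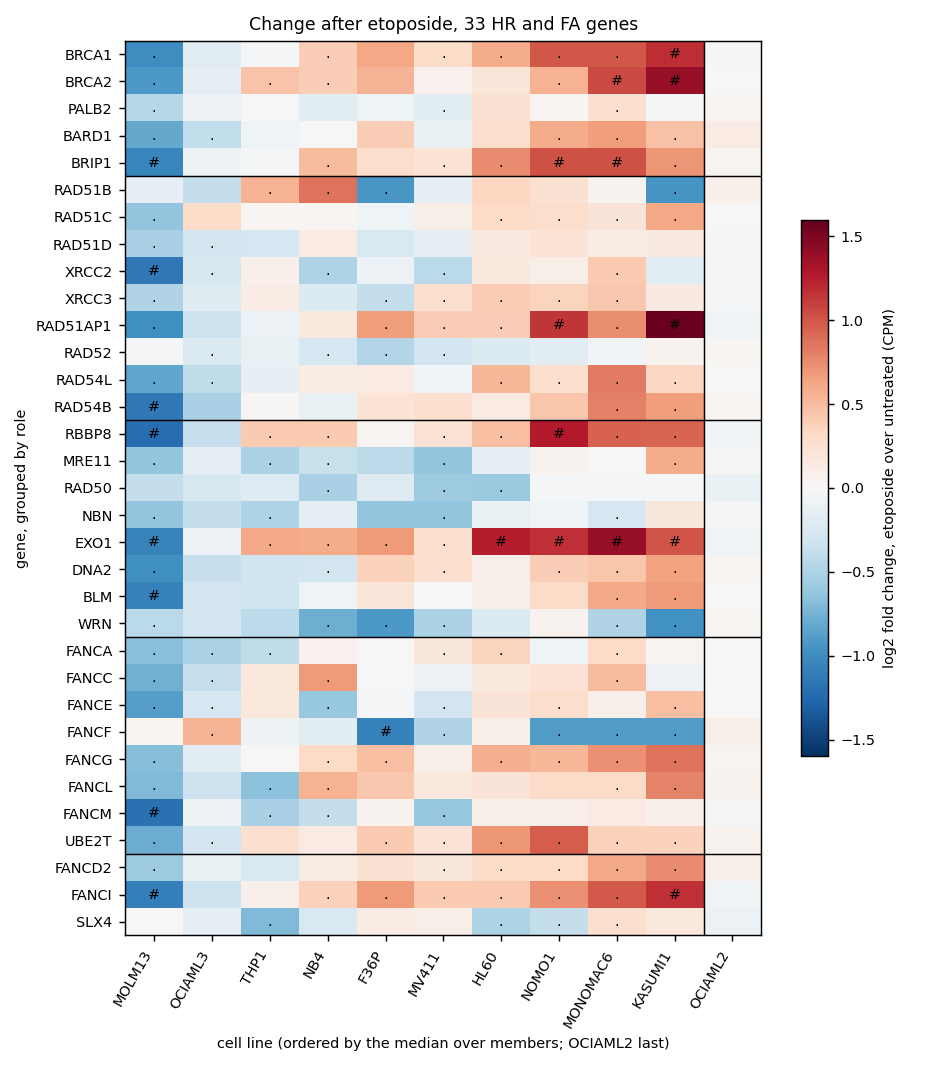
Log2 fold change of CPM after etoposide for the 33 members (vertical axis) in 11 cell lines (horizontal axis), as a heat map with a colour scale centred on 0; a point marks an adjusted p under 0.05 and a hash mark adds a change over 2-fold. The MOLM13 column is lower in 28 members, and the KASUMI1, MONOMAC6 and NOMO1 columns are higher in 19, 23 and 16.

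In KASUMI1, 19 members rose, where 31.5% of 14286 genes did, and 3 fell, where 28.6% did. By over 2-fold, 5 rose against 14.6% of genes and 0 fell against 6.52%. The median log2 fold change was 0.46, against 0.03 over all genes. RAD51AP1, which helps strands to pair, had the largest rise of any member in any line, from 51.9, 48.2 and 33.8 CPM to 140, 118 and 142 CPM (1.58 ± 0.15 SE, edgeR adjusted p = 1.89e-05). BRCA2 went from 21.8, 23.2 and 15.9 CPM to 61.3, 34.7 and 64.3 CPM (1.40 ± 0.23), BRCA1 from 69.8, 73.3 and 49.8 CPM to 163, 113 and 162 CPM (1.18 ± 0.17), and FANCI rose by 1.17. The groups did not overlap in these genes. EXO1 rose by 1.00, at the 2-fold line, and fell short of it in 7 alternatives (0.87 to 0.99), DESeq2 and the GC correction among them. With that correction 4 rose and 1 fell by over 2-fold.

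In MONOMAC6, 23 members rose, where 31.8% of 14353 genes did, and 3 fell, where 30.5% did; by over 2-fold, 3 rose against 8.53% and 0 fell against 4.47%. The median was 0.42, against 0.01 over all genes, and the libraries were tight: the members' median distance from the untreated mean lay between -0.05 and 0.08 before and between 0.38 and 0.42 after etoposide. EXO1 rose most, from 47.7, 43.4 and 44.8 CPM to 123, 115 and 120 CPM (1.40 ± 0.06 SE, edgeR adjusted p = 3.06e-09). BRCA2 (1.05 ± 0.08) and the helicase BRIP1 (1.02 ± 0.08) also passed 2-fold, and both fell short of it without the second untreated library (0.95 each), BRIP1 in 4 such omissions in all. With the GC correction 5 rose by over 2-fold. BRCA1 and FANCI rose by 0.99 and 0.98.

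NOMO1 had 16 members higher, where 28.8% of 15024 genes rose, and 2 lower, where 23.9% fell; without the third untreated library 10 rose. By over 2-fold, 4 rose against 8.34% and 0 fell against 4.43%, and the median was 0.28 against 0.04 over all genes. RBBP8 went from 58.7, 49.4 and 50.8 CPM to 93.8, 155 and 135 CPM (1.27 ± 0.15 SE), EXO1 from 60.3, 64.3 and 55.4 CPM to 120, 149 and 135 CPM (1.17 ± 0.10), and RAD51AP1 from 40.7, 38.1 and 30.2 CPM to 56.4, 97.5 and 86.7 CPM (1.14 ± 0.17). BRIP1 reached 1.02 and fell short of 2-fold in 7 alternatives (0.81 to 0.98), and RAD51AP1 in 2, without the second etoposide library (0.95) and with the GC correction (0.91), which left 2 members past 2-fold. The first etoposide library of NOMO1 was the lowest of its group in these genes, and it still lay above the untreated ones.

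HL60 had 13 members higher, where 17.5% of 13210 genes rose, and 2 lower, where 15.0% fell. EXO1 was the single member past 2-fold (5.34% of genes rose that far), from 67.0, 53.4 and 56.3 CPM to 142, 110 and 169 CPM (1.25 ± 0.14 SE, edgeR adjusted p = 3.46e-05), and 0 fell that far, where 1.24% of genes did. The median was 0.21, against -0.01 over all genes. RAD50, the ATPase of the end-sensing complex, went the other way, from 103, 96.4 and 89.9 CPM to 65.9, 58.1 and 68.1 CPM (-0.59 ± 0.10, edgeR adjusted p = 0.000573). SLX4 was the other member that fell in HL60, by 0.50 on the log2 scale.

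OCIAML3 had the second lowest median, -0.27 against 0.01 over all genes. Of its members 9 fell, where 17.7% of 14059 genes did, and 1 rose, where 22.4% did; 0 passed 2-fold in either direction, where 1.36% of genes fell and 7.18% rose that far. The third etoposide library had the lowest members' median of the 6 (-0.48, against -0.19 and -0.13 in the other 2 etoposide libraries and -0.12 to 0.11 in the untreated ones), and left out, the median stayed negative. The count of members that fell was 5 without the first untreated library and 17 with the GC correction, and 2 rose with that correction or without the third etoposide library. UBE2T fell from 81.7, 85.1 and 78.6 CPM to 68.6, 64.8 and 67.4 CPM (-0.29 ± 0.07 SE, edgeR adjusted p = 0.00913). FANCF was the member that rose, from 5.75, 6.59 and 5.31 CPM to 7.997, 8.54 and 9.14 CPM (0.54 ± 0.12, edgeR adjusted p = 0.00735), with no overlap.

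F36P, MV411, NB4 and THP1 had members on both sides. In F36P 5 fell (25.0% of 15911 genes) and 5 rose (35.0%); by over 2-fold 1 fell (6.67%) and 0 rose (24.3%), and the median of 0.05 lay near the 0.09 of all genes. These F36P counts depended on single libraries: 8 fell and 3 rose without the first untreated library, and 3, 10, 2 and 3 rose without the second untreated, the third untreated, the first etoposide and the second etoposide library. In MV411 10 fell (30.4% of 13998 genes) and 11 rose (33.5%), with 0 past 2-fold (2.63% lower, 12.5% higher). In MV411 4 resection genes fell, NBN, RAD50, MRE11 and WRN, and 3 rose. NBN went from 158, 150 and 151 CPM to 105, 98.6 and 94.7 CPM (-0.62 ± 0.06 SE), and EXO1 rose from 97.9, 95.0 and 98.0 CPM to 119, 114 and 116 CPM (0.26 ± 0.06).

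In NB4 8 fell (28.7% of 13809 genes) and 10 rose (31.0%), with 0 past 2-fold (4.82% lower, 13.2% higher), and with the replicate number as a block 12 fell and 10 rose. WRN fell in NB4 from 56.8, 53.3 and 64.6 CPM to 38.7, 29.6 and 33.5 CPM (-0.78 ± 0.11 SE, edgeR adjusted p = 2.97e-05). In THP1 6 fell (16.0% of 14789 genes) and 4 rose (16.1%), with 0 past 2-fold (3.46% lower, 6.38% higher). The second etoposide library of THP1 had the lowest members' median (-0.31, against -0.00 and -0.04): without it 7 rose and the members' median turned from -0.07 to 0.08, while 2 fell without the first untreated library and 1, 2, 2 and 1 rose without the second untreated, the third untreated, the first etoposide and the third etoposide library.

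In OCIAML2, whose etoposide libraries the study set aside, 0 members fell and 0 rose, where 0% of 13604 genes fell and 0.0221% rose, which is 3 genes, CDKN1A and MDM2 among them. The members' log2 fold changes there lay between -0.11 and 0.13. Each count of 0 given for a cell line was also 0 at an unadjusted p under 0.05, by edgeR's exact test and by DESeq2. With the GC correction the exceptions were WRN, lower by over 2-fold in KASUMI1, and 1 member lower at an unadjusted p in OCIAML2.

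**Figure D3:**
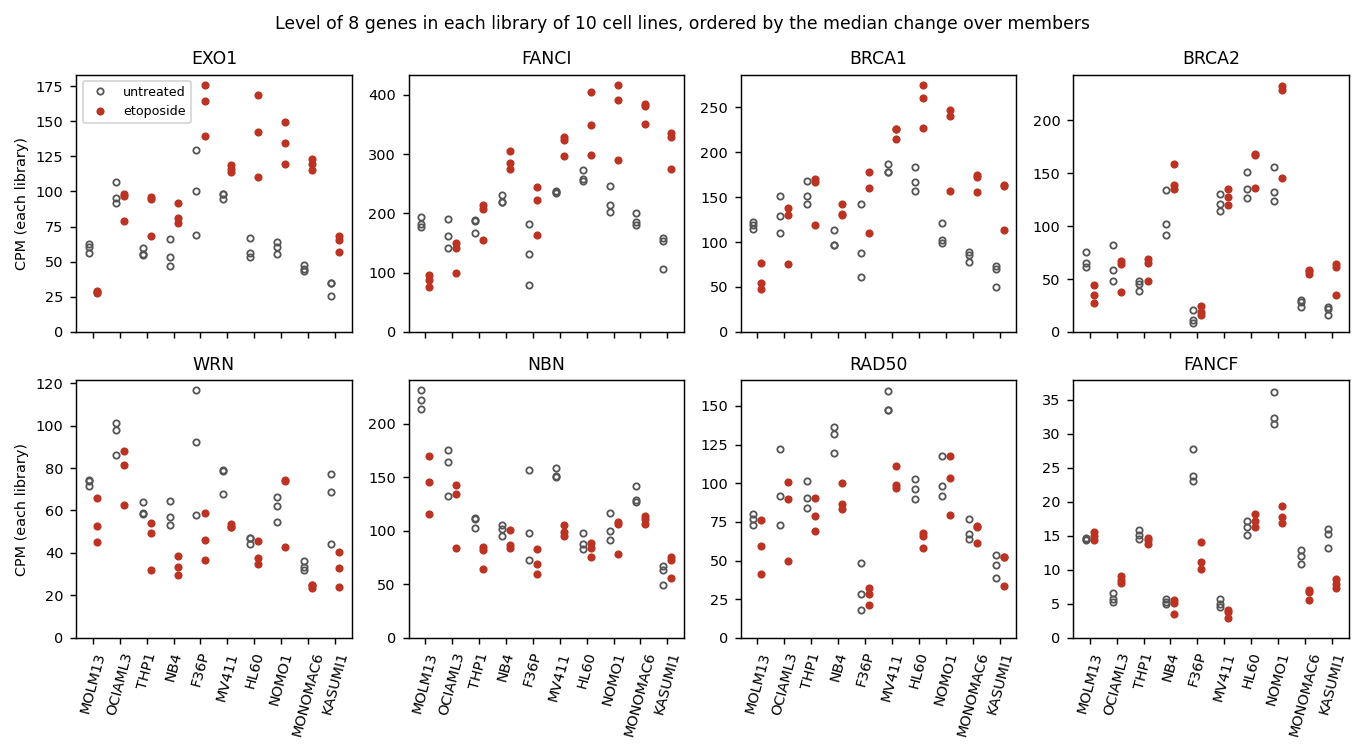
CPM (vertical axis, linear) of 8 members in each library of 10 cell lines, ordered along the horizontal axis by the members' median change; open points are the 3 untreated and filled points the 3 etoposide libraries of a line. EXO1 lies lower after etoposide in MOLM13 (29.2, 28.0 and 28.4 CPM) and higher in MONOMAC6 (123, 115 and 120 CPM), and WRN is lower in MV411 and NB4.

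With cell lines as the replicates, 3 members fell and 1 rose over 10 lines at an adjusted p under 0.05 (limma), where 14.2% of 19974 genes fell and 20.1% rose. The members' shares were below these in both directions. All 4 are among the 8 resection genes, of which MRE11, RBBP8, DNA2 and BLM did not pass. WRN, a RecQ helicase that also trims ends, had the lowest mean log2 change, -0.47 ± 0.09 (SE, n = 10; limma adjusted p = 0.00336), and was below 0 in 10 of 10 lines, from -0.91 to -0.01, on the log2 CPM scale of that test. In the edgeR fits within lines it was below 0 in 9, with 0.06 in NOMO1. It passed the test within 6 lines and fell furthest in KASUMI1, from 77.1, 68.6 and 44.3 CPM to 40.3, 24.2 and 32.8 CPM. Its adjusted p lay between 0.00174 and 0.0146 over the alternatives tried, so its call did not depend on any of them.

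NBN, the signalling subunit of the MRE11 complex, had a mean of -0.29 ± 0.09 (limma adjusted p = 0.0234) and RAD50 one of -0.25 ± 0.08 (adjusted p = 0.0235), each below 0 in 9 of 10 lines on the same scale. Without MV411 both lost the call (adjusted p = 0.0549 and 0.0558), and RAD50 lost it also without HL60 (0.0515), without NB4 (0.0538), without replicate 2 (0.0774) and without replicate 3 (0.113). MRE11, the nuclease of the same complex, had a mean of -0.19 ± 0.11 and did not pass the test (limma adjusted p = 0.181). NBN, WRN and RAD50 have transcripts of 36.9%, 38.4% and 41.2% GC, and among untreated replicates the SD of log2 CPM was 0.26 for RAD50, against 0.08 for FANCG, the member with the smallest. With the GC correction the means were -0.30 for NBN, -0.48 for WRN and -0.30 for RAD50, and all 3 kept an adjusted p under 0.05.

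EXO1 had the highest mean, 0.61 ± 0.22 (limma adjusted p = 0.0470), with 8 lines above 0, all 8 of them past the test within the line, and 2 below 0, MOLM13 (-1.07) and OCIAML3 (-0.10). The call was at the limit: leaving out F36P, HL60, KASUMI1, MONOMAC6, MV411, NB4, NOMO1 or THP1 gave adjusted p from 0.0647 to 0.0949, and without MOLM13 the mean was 0.79 with an adjusted p of 0.0101. BRCA1 (0.41 ± 0.19, limma adjusted p = 0.114), RAD51AP1 (0.39 ± 0.21, 0.160) and BRCA2 (0.39 ± 0.19, 0.123) had the next highest means and did not pass. Without MOLM13, the line with the lowest members' median, 8 members passed as higher, BRCA1 (0.56, limma adjusted p = 0.0263) and BRCA2 (0.53, 0.0329) among them. The share of all genes that passed without MOLM13 was not counted, and with all 10 lines it was 20.1%. The median of the 33 means was 0.07, against 0.12 over all genes.

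FANCF had the second lowest mean, -0.35 ± 0.15, and did not pass (limma adjusted p = 0.0876; 0.0360 without OCIAML3). Its changes ran both ways, from -1.08 in F36P to 0.54 in OCIAML3. It was the 1 member that changed by over 2-fold against the median of its line, in F36P, where 27.7, 23.0 and 23.7 CPM became 11.1, 10.1 and 14.1 CPM (edgeR adjusted p = 0.000224; -0.99 without the second etoposide library, -0.83 with the library total as the scale).

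A member was taken to depart from the others in a line where its log2 fold change lay more than 1 from the median of the 33, and 8 such pairs were found, 4 of them FANCF. In KASUMI1 FANCF fell from 16.1, 13.2 and 15.2 CPM to 7.96, 8.62 and 7.36 CPM (-0.89 ± 0.12 SE), in MONOMAC6 from 12.0, 10.8 and 12.9 CPM to 5.49, 7.02 and 6.77 CPM (-0.89 ± 0.12), and in NOMO1 from 31.5, 36.2 and 32.3 CPM to 19.3, 17.7 and 16.9 CPM (-0.89 ± 0.10). In each of the 3 lines the etoposide libraries lay below the untreated ones, while the members' median rose. RAD51B (-0.95 ± 0.16, from a mean of 5.73 to 2.97 CPM) and WRN (-0.97 ± 0.22) departed downwards in KASUMI1, and RAD51AP1 in KASUMI1 and EXO1 in HL60 departed upwards.

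As a description over 10 lines, the log2 fold change of each member within the lines was set beside the median of the other members. BRCA1 (Pearson r = 0.98), FANCI (0.97), FANCG (0.97), BLM (0.97) and RAD54B (0.96) followed the median most closely. SLX4 (0.11), RAD52 (0.02), RAD51B (-0.09) and WRN (-0.14) did not follow it, and FANCF ran against it (-0.64). RAD52, the annealing protein, fell in 4 of the 10 lines, and its changes within lines lay between -0.46 in F36P and 0.06 in KASUMI1. All points share the contrast of MOLM13 with the rest, and n is 10.

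By role, with 24.4% of pairs lower and 27.7% higher over all genes, the BRCA proteins and partners (BRCA1, BRCA2, PALB2, BARD1 and BRIP1) fell in 7 and rose in 21 of 50 pairs of gene and line, and the median of their means over lines was 0.37. These were 14.0% and 42.0% of their pairs. The FANCD2, FANCI and SLX4 group fell in 5 and rose in 13 of 30 (16.7% and 43.3%, median 0.19). The core complex with UBE2T fell in 23 and rose in 23 of 80 (0.01), the strand pairing genes (RAD51B, RAD51C, RAD51D, XRCC2, XRCC3, RAD51AP1, RAD52, RAD54L and RAD54B) fell in 19 and rose in 23 of 90 (0.07), and the resection genes fell in 22 and rose in 22 of 80 (-0.08), and the shares of these last 3 groups lay within 5 percentage points of those over all genes. Within the resection group the rises came from EXO1, in 8 lines, RBBP8, in 7, DNA2, in 4, BLM, in 2, and MRE11, in 1, and WRN, NBN and RAD50 gave 13 of the 22 falls and no rise. UBE2T rose in 6 lines, most in NOMO1, from 62.6, 72.1 and 59.3 CPM to 113, 141 and 127 CPM (0.97 ± 0.11 SE), and FANCD2 rose in 5, most in KASUMI1, from 123, 118 and 100.4 CPM to 205, 173 and 199 CPM (0.76 ± 0.10). FANCG, a core complex subunit, rose in 6 lines and fell in MOLM13 (-0.68).

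Other genes of the 2 pathways were followed as a list of 42, of which 41 were tested. In MOLM13 25 of the 41 fell (61.0%, against 28.1% of all genes) and 4 rose (9.76%, against 28.1%), with USP1 (-1.39), which removes ubiquitin from FANCD2, MND1 (-1.34), FANCB (-1.16), MCM8 (-1.13) and CENPS (-1.05) past 2-fold. PSMC3IP, a partner of DMC1 in meiotic recombination, rose by over 2-fold in 6 lines, from 1.24 in KASUMI1 to 1.91 in MONOMAC6, and over 10 lines by 0.99 ± 0.28 (limma adjusted p = 0.0187). MCM8 rose by over 2-fold in MONOMAC6 (1.23), NOMO1 (1.11) and KASUMI1 (1.08). Over 10 lines 3 of the 41 fell (BABAM2, CENPX and MCM9) and 7 rose (PSMC3IP, SWI5, HROB, EME1, HELQ, FAAP20 and RECQL5), where 14.2% of all genes fell and 20.1% rose.

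Lists of genes for other processes moved in several of the same lines, and their part in the members' changes was not tested. The 24 replication genes (the MCM helicase, CDC6, PCNA, thymidylate synthase and the like) fell in 24 of 24 in MOLM13 (median -1.003, 12 past 2-fold) and in 18 in OCIAML3 (-0.42), and rose in 19 in MONOMAC6 (0.41), 17 in NOMO1 (0.30), 16 in HL60 (0.38) and 13 in KASUMI1 (0.24). In MV411 12 of them fell and 9 rose (-0.12), in F36P 8 fell and 5 rose, and in NB4 5 fell and 7 rose. The 20 mitosis genes fell in 20 of 20 in MOLM13 (-1.11), in 16 in MV411 (-0.37), in 12 in F36P (-0.78) and in 11 in THP1 (-0.55), lines in which the members' medians lay between -0.07 and 0.07 except in MOLM13. In KASUMI1 14 mitosis genes rose and 1 fell (0.42). Of the p53 target genes, 20 of 20 rose in OCIAML3 (median 2.03) and 19 of 20 in MOLM13 (1.21), the 2 lines with the lowest members' medians; in the other 8 lines analysed their medians lay between 0.22 and 0.76. CDKN1A, the p53 target that stops the cell cycle, rose in 11 of 11 lines, and MDM2 rose by 1.84 in MOLM13 and by 2.59 in OCIAML3. Over 10 lines the members' median had a Pearson r of 0.94 with the replication median, 0.84 with the mitosis median and -0.52 with the p53 median (Spearman rho 0.81, 0.83 and -0.15), as a description of 10 points that share MOLM13 as their lowest.

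**Figure D4:**
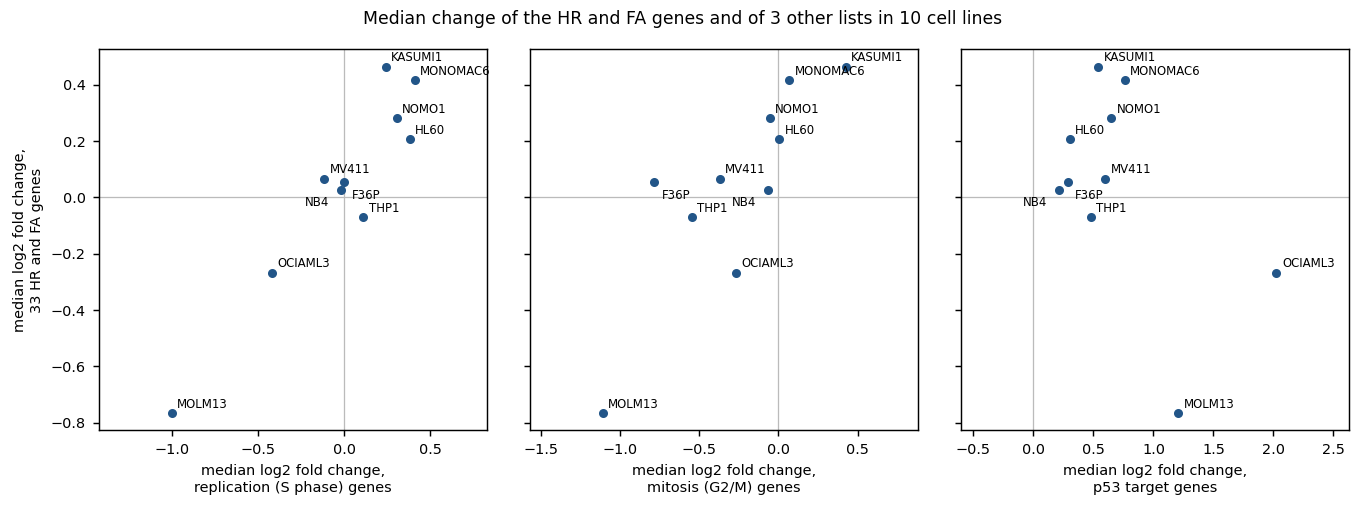
Median log2 fold change after etoposide of the 33 members in each of 10 cell lines (vertical axis) against the median of the replication, mitosis and p53 target lists (horizontal axes), with each point 1 line. MOLM13 is at the lower left for replication (-1.003 and -0.77) and mitosis, at a p53 median of 1.21, and KASUMI1 and MONOMAC6 are at the top.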

How the data were processed

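Stranded mRNA libraries of 11 AML cell lines were sequenced by the authors, who checked the reads with FastQC 0.11.5, aligned them with STAR 2.5.3a to GRCh38 with gencode 25 and deposited whole-number read counts per gene for each library. The deposited counts were unnormalized, with 1 column per library. The strand setting of that column is not given in the sources used here. Of 716 genes fully covered by an exon on the other strand in gencode 44, 470 hold reads. Counting without strand could not give that under the same gene models. The reads were counted with gencode 25, however, so the setting is not settled. The 45 pseudoautosomal Y copies, which hold 0 reads, were left out. The study's methods name edgeR 3.20.1, a 2-fold minimum and an FDR under 0.05; both limits were used here, and counts at the FDR alone are given beside them.

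Here counts were filtered (filterByExpr, minimum count 10), scaled by TMM and tested with the edgeR 4.0.16 quasi-likelihood test in R 4.3.3, in 1 fit per cell line (3 untreated against 3 etoposide libraries), 1 fit of the 33 untreated libraries, and 1 fit of 60 libraries for differences in response. Changes over 10 lines were tested with limma 3.58.1 on log2 CPM (prior count 2). P-values were adjusted by Benjamini-Hochberg over all genes tested, and a called change has an adjusted p under 0.05 and, where stated, over 2-fold. Replicates are described as biological by the study, and p-values measure the spread between them. DESeq2 1.42.0, the edgeR exact test, other scalings, no filter, a replicate block, each replicate or line left out, and a correction for transcript GC content were tried as alternatives; the last was chosen after seeing the data. Same-numbered samples deviated together in NB4 (correlations 0.265, 0.22 and 0.152, each over the limit of 0.1) and not in all 3 pairs of any other line. The scripts were tested on simulated data with known changes.

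The members and lists were chosen with earlier results of these data known. Values are given in full for the 4 members with the lowest and the 4 with the highest mean change over 10 lines, members called against the median of their line, the 5 widest and 3 narrowest basal ranges, the 10 largest differences in response, and BRCA1, BRCA2, FANCD2 and UBE2T. Other genes were named after their values were seen.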

Additional observations from a re-analysis of the deposited data

Results flagged for a closer look

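One member had a cell line far from the rest: the log2 fold change of BRIP1 after etoposide was -1.04 in MOLM13, and its gap to the next line was 0.467 of the range over 10 lines, just above the limit of 0.466. Chance gives about 1 such case in 20 groups, and 33 members were looked at.

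The response to etoposide differed between a line and the mean of the other 9 by over 2-fold in 17 cases (edgeR quasi-likelihood test of the difference, adjusted p under 0.05), which are values with no explanation tested. In MOLM13 it was lower by these log2 differences: -1.80 for EXO1, -1.68 for RBBP8, -1.56 for FANCI, -1.50 for BRCA1, -1.49 for BRIP1, -1.45 for RAD51AP1, -1.39 for BRCA2, -1.33 for RAD54B, -1.18 for BLM, -1.12 for UBE2T, -1.08 for DNA2, -1.03 for XRCC2, -1.02 for FANCM and -1.02 for FANCG. In KASUMI1 it was higher by 1.37 for RAD51AP1 and 1.17 for BRCA2, and in NB4 by 1.04 for RAD51B. Of all 19974 genes, 3.90% had a response lower by over 2-fold in MOLM13. A response higher by over 2-fold was found in 5.50% of genes in KASUMI1 and 3.00% in NB4. The 2 of 33 members in KASUMI1 and 1 of 33 in NB4 were near those shares.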

How the results depend on the processing

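Single-gene values were followed for the members with the most extreme means, for FANCF in 3 lines and for calls past 2-fold. None of these changed direction: under the alternatives 709 such values stayed on their side of the threshold, 72 dropped below it and 3 passed it. Small means were not among them, and some changed sign: that of PALB2 over 10 lines was -0.017, and 0.065 with the library total. The total of calls past 2-fold over 10 lines moved from 9 lower to 16 with no filter and 4 with the GC correction, and from 13 higher to 21 with the library total as the scale; with no fold minimum it was 76 and 102. With the library total, F36P had 3 lower and 14 higher, MV411 18 higher, and NB4 4 lower and 17 higher, and the members' median was 0.309 in F36P, 0.310 in HL60, 0.640 in KASUMI1, 0.534 in MONOMAC6, 0.194 in MV411 and 0.233 in NB4. With the GC correction, F36P had 8 lower and 11 higher, OCIAML3 17 and 2, THP1 11 lower and MOLM13 2 past 2-fold, and the median was 0.275 in HL60, -0.692 in MOLM13 and -0.009 in MV411. Shares of all genes were not counted under other scalings, other tests, the GC correction, no filter, the replicate block or a left-out replicate. Counts of members under these alternatives therefore have no share beside them.

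The replicate block gave 3 higher in F36P and 4 lower in OCIAML3, where the numbers do not pair the samples, and 12 lower in place of 8 in NB4, where they do; it gave 17 response differences, as did the fit without it. Leaving out 1 replicate gave 4 to 8 lower and 2 to 10 higher in F36P, 10 to 17 higher in NOMO1, 5 to 12 lower and 1 to 2 higher in OCIAML3, and 2 to 7 lower and 1 to 7 higher in THP1. The members' median then ranged from 0.199 to 0.309 in HL60, 0.014 to 0.067 in MV411 and -0.087 to 0.075 in THP1.

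Over 10 lines, leaving out 1 replicate gave 2 to 3 lower and 0 to 1 higher members. The 3 lower members became 1 with the library total or without MV411, and 0 at 2-fold. The 1 higher member became 8 without MOLM13, for which the share of all genes was not counted. It became 0 without F36P, HL60, KASUMI1, MONOMAC6, MV411, NB4, NOMO1 or THP1, with OCIAML2 added or with a prior count of 0.5. It was also 0 by an exact sign-flip permutation, with the GC correction and at 2-fold. With no fold minimum, 123 of the 363 basal pairs were higher and 105 lower, and 136 of 330 responses differed. Pooled shares of all genes were not counted for these. Within a line, 2 to 24 of 33 members were then basally higher and 2 to 19 lower. Among 18130 genes, 6022 to 7666 were higher and 3367 to 5261 lower in a line. For responses in a line, 1 to 20 of 33 members had a higher one and 0 to 25 a lower one. Of 19974 genes, 941 to 3170 had a higher response in a line and 1089 to 3514 a lower one. Where the alternative's own construction does not show it, the cause was not tested. Members under 10 CPM, RAD54B, RAD51B and FANCF in some lines, are the least precise at this depth.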
